A study of Homo sapiens with 12 samples.

Results

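The 9 genes described here hold, move or sense iron: the ferritin light and heavy chain genes FTL and FTH1, the transferrin receptor TFRC, the transporters SLC11A2, SLC11A1 and SLC40A1, the ferritin receptor NCOA4, and the iron regulatory proteins ACO1 and IREB2. They were chosen by gene symbol, and all 9 were among the 20003 genes measured. Their mRNA was followed in 2 human acute myeloid leukemia cell lines, NB4, a promyelocytic line with the PML-RARα fusion, and Kasumi-1, which carries the AML1-ETO fusion. In each line, 3 samples received OGP46 at 1 μM and 3 received DMSO, in both cases for 48 h, which makes 12 samples. The time is that of the labels and the methods, while a figure legend of the study gives a longer one. OGP46 is a diterpenoid derivative designed from oridonin, and the study used it to induce differentiation of these cells. A single line stands for each fusion, so the fusion and every other property of that line cannot be told apart.

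Ferritin is a hollow protein shell of light and heavy chains in which the cell stores iron. The heavy chain oxidizes ferrous iron and the light chain helps to form the mineral core. Iron enters most cells as transferrin bound to the transferrin receptor, leaves the endosome through SLC11A2 (DMT1), and is exported by SLC40A1 (ferroportin). When iron is scarce, ACO1 (IRP1) and IREB2 (IRP2) bind a short hairpin, the iron-responsive element. Binding near the start of a ferritin mRNA blocks its translation, whereas binding after the coding part of the TFRC mRNA protects that mRNA from decay. Part of this control therefore acts on protein output, which was not measured here. The ferritin genes are also known targets of transcription factors that respond to oxidative stress and differentiation.

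The hairpins of this kind that a search found in the 9 members are shown here. A search of the untranslated regions of GENCODE release 29 on GRCh38 looked on the transcribed strand for a C, 5 bases, the loop CAGTGN, and 5 bases able to pair with the first 5, G to T pairs allowed. It found 1 element each in the 5′ regions of FTH1, FTL and SLC40A1 and 4 in the 3′ region of TFRC. Each is given 5′ to 3′ in 30 bases, with the 6 bases of the loop in capitals.
FTH1 5′ element, chr11:61967573-61967602, minus strand: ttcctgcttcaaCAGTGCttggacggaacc
FTL 5′ element, chr19:48965335-48965364, plus strand: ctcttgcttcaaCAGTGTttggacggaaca
SLC40A1 5′ element, chr2:189580660-189580689, minus strand: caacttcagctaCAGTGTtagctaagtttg
TFRC 3′ element 1, chr3:196050978-196051007, minus strand: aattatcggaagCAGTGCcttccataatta
TFRC 3′ element 2, chr3:196050574-196050603, minus strand: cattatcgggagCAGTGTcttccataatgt
TFRC 3′ element 3, chr3:196050509-196050538, minus strand: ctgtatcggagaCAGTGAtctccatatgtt
TFRC 3′ element 4, chr3:196050462-196050491, minus strand: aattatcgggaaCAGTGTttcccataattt
The FTL and FTH1 elements had 26 of 30 bases in common. The same letters occurred in the 5′ region of 36 of 19028 protein-coding genes (0.189%) and in the 3′ region of 132 of 19560 (0.675%). SLC11A2, SLC11A1, NCOA4, ACO1 and IREB2 had no such match, which says only that these letters are not in their untranslated regions as annotated. An element of another form would not have been found, so the matches do not sort the members by how iron controls them.

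Expression was given as FPKM, fragments scaled to exon length and to the mapped fragments of the library, a scale on which levels of different genes can be compared. The values of a sample summed to between 248207 and 310262 FPKM, and 9339 to 9746 genes reached 1 FPKM. Read depth is unknown. The 5 granule markers (MPO, ELANE, PRTN3, AZU1 and CTSG) summed to 1586 FPKM or more in every sample. The 5 Kasumi-1 markers (RUNX1T1, CD34, KIT, HLA-DRA and TRH) summed to between 234 and 303 FPKM in Kasumi-1 cells and to at most 0.759 FPKM in 5 of the 6 NB4 samples. NB4 control sample 3 stood apart at 3.08 FPKM, so the ferritin results of NB4 cells are also given without it. The study speaks of independent experiments, but no label ties a sample to a culture of its own, so p-values measure the spread between these samples, part of which may be technical.

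Ferritin mRNA was abundant in both lines, in different proportions of the 2 chains. In NB4 controls, FTL (chr19:48965301-48966878, plus strand) was at 973, 973 and 846 FPKM, the 22nd to 29th highest of all genes. FTH1 (chr11:61959718-61967660, minus strand) was at 542, 293 and 413 FPKM in the same samples. In Kasumi-1 controls, FTL was at 1754, 2174 and 2130.4 FPKM, and FTH1 at 104, 124 and 131 FPKM. FTL was thus higher in every Kasumi-1 control than in every NB4 control, and FTH1 lower. Among the 9 genes of NB4 controls, the order of mean FPKM was FTL, FTH1, TFRC, NCOA4, IREB2, ACO1, SLC11A2, SLC40A1 and SLC11A1, with no overlap of neighbours. The order was the same in Kasumi-1 controls, but there the ranges of FTH1 and TFRC overlapped, as did those of SLC11A2 and SLC40A1. With OGP46, FTL and FTH1 overlapped in NB4 cells, where the highest FTH1 value passed the lowest FTL value. In that group SLC11A2 and SLC40A1 also overlapped, and in Kasumi-1 cells with OGP46 the overlapping neighbours were TFRC and NCOA4.

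Whether OGP46 changed these genes was tested within each line by limma on log2(FPKM + 0.1), and a gene was called if its adjusted p was below 0.05 and it changed by 0.58 or more on the log2 scale (1.49-fold). In NB4 cells, FTL was up-regulated and was the 1 gene called among the 8 members tested. Of all 11750 genes tested, 1.45% were called upwards. SLC11A1 lay below the filter of a mean of 0.1 FPKM in both lines and was not tested. Across genes, control and OGP46 samples with the same number tended to depart from their group means in the same direction (r of 0.157 to 0.622). A fit that compared them with the sample number as a block called FTL and FTH1. By that fit, 5.06% of all genes were called upwards.

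FTL in NB4 cells incubated with OGP46 was at 1504, 1389.8 and 1327 FPKM, against 973, 973 and 846 FPKM in the controls. All 3 OGP46 samples lay above all controls, and the means were 1407 ± 89.8 and 931 ± 73.3 FPKM (SD, n = 3 each). The log2 fold change was 0.60 (standard error, SE, 0.09, 95% interval 0.39 to 0.80, limma adjusted p = 0.0299 and 0.000254 with the block). Same-numbered samples differed by 1.55-fold, 1.43-fold and 1.57-fold. The call was lost without any one of the controls or of OGP46 samples 1 and 3, with adjusted p from 0.0553 to 0.134. In each of these fits at most 2 of all genes tested were called. Without NB4 control 3 the log2 fold change was 0.53. Over all genes tested in NB4 cells, the median change was 0.18 (log2). With the samples centred on their medians, a shift of over 0.1, FTL remained higher at 0.38 (adjusted p = 0.178, and 0.0134 with the block), under the fold required for a call.

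FTH1 had the largest log2 fold change of the 8 members in NB4 cells, with a wide spread between samples. It was at 1402, 623 and 979.8 FPKM with OGP46 and at 542, 293 and 413 FPKM in the controls. The groups did not overlap, and the means were 1002 ± 390.2 and 416 ± 125 FPKM (SD, n = 3 each). Sample 1 was the highest and sample 2 the lowest in both groups. The log2 fold change was 1.24 (SE 0.30, 95% interval 0.54 to 1.93, limma adjusted p = 0.0673), which is not past the threshold. Within same-numbered pairs the FTH1 fold was 2.59, 2.13 and 2.37, and with the block the adjusted p was 3.6e-06. It stayed called under the block after median centring (1.02, adjusted p = 0.00168) and after scaling to TPM (1.11, adjusted p = 0.000307). Without NB4 control 3 and without the block the log2 fold change was 1.25 (adjusted p = 0.214), and without OGP46 sample 2 it was 1.54 (adjusted p = 0.027).

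In Kasumi-1 cells, FTL and FTH1 were each about as much higher with OGP46 as FTL was in NB4 cells, and neither was called without the block. Of all 11835 genes tested, 0.0169% were called upwards. With the block, both ferritin genes were called and no other member was, against 0.27% of all genes upwards. FTL was at 2834, 2973 and 3542 FPKM with OGP46 and at 1754, 2174 and 2130.4 FPKM in the controls, so the groups did not overlap. Its means were 3116 ± 375 and 2019 ± 231 FPKM (SD, n = 3 each), and its log2 fold change was 0.63 (SE 0.12, 95% interval 0.35 to 0.91, limma adjusted p = 0.0817 and 0.00907 with the block). With OGP46, FTL was the 3rd to 6th highest of all genes in Kasumi-1 cells.

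FTH1 in Kasumi-1 cells was at 167, 165 and 218 FPKM with OGP46 and at 104, 124 and 131 FPKM in the controls, again without overlap. The means were 184 ± 30.05 and 120 ± 13.7 FPKM (SD, n = 3 each). The FTH1 log2 fold change was 0.61 (SE 0.12, 95% interval 0.35 to 0.88, limma adjusted p = 0.0747 and 0.00445 with the block). Under the block with median centring, FTL at 0.56 and FTH1 at 0.55 fell short of the fold required, with adjusted p of 0.00154 and 0.000857.

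**Figure D1:**
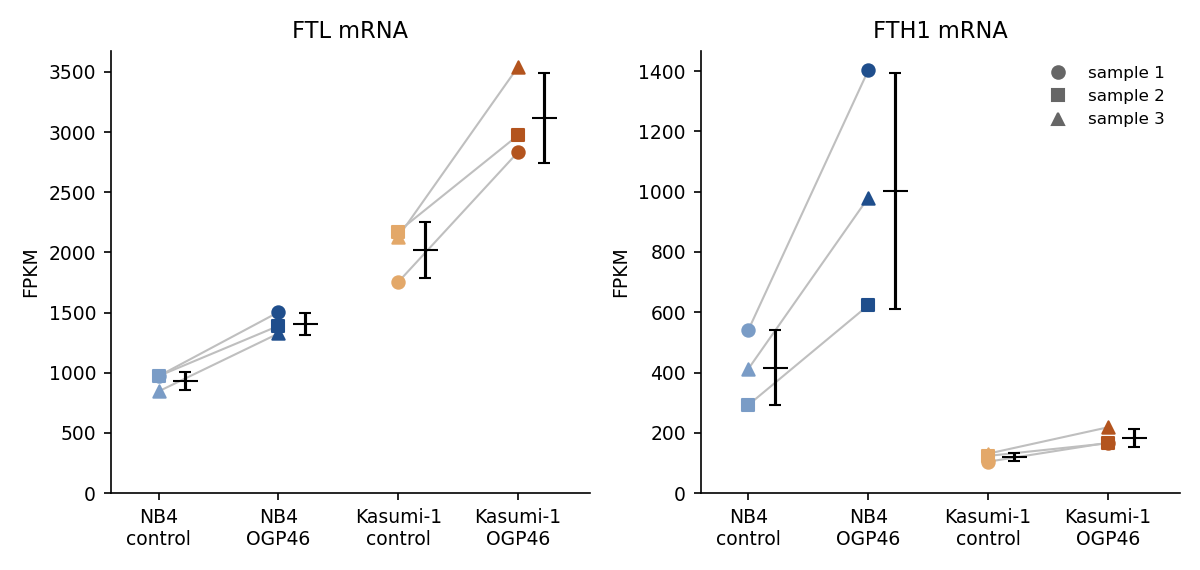
FPKM of FTL (left) and FTH1 (right) in each sample, with lines joining same-numbered control and OGP46 samples and black bars giving the mean ± SD of 3 samples. In both lines every OGP46 sample lies above every control for both genes, and FTH1 reaches 1402 FPKM in NB4 cells but at most 218 FPKM in Kasumi-1 cells.

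The share of ferritin mRNA among all FPKM was larger in every OGP46 sample than in every control of its line. FTL and FTH1 together made up 0.591%, 0.494% and 0.507% of all FPKM in NB4 controls and 1.10%, 0.729% and 0.791% with OGP46. In Kasumi-1 cells this share was 0.648%, 0.740% and 0.808% in the controls and 1.01%, 1.09% and 1.34% with OGP46. The groups did not overlap in either line (exact permutation test, two-sided p = 0.10 in each line, the smallest that 3 samples against 3 can give).

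The balance of the 2 chains was shifted towards FTH1 in each NB4 pair and was nearly constant in Kasumi-1 cells. The ratio of FTL to FTH1 FPKM, which does not depend on how samples are scaled, was 1.79, 3.32 and 2.05 in NB4 controls and 1.07, 2.23 and 1.35 with OGP46. These NB4 ranges overlapped, because sample 2 was the highest in both groups. On the log2 scale the ratio was lower with OGP46 by a difference of −0.64 between the group means (exact permutation test, two-sided p = 0.30). Within each same-numbered NB4 pair it was lower, by −0.74, −0.57 and −0.60 (exact sign-flip test, two-sided p = 0.25, the smallest that 3 pairs can give). In Kasumi-1 cells the ratio was 16.8, 17.6 and 16.3 in the controls and 16.9, 18.0 and 16.2 with OGP46. The difference of the Kasumi-1 group means was 0.01 on the log2 scale (exact permutation test, two-sided p = 0.80), and within pairs it was 0.01, 0.03 and −0.0040.

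**Figure D2:**
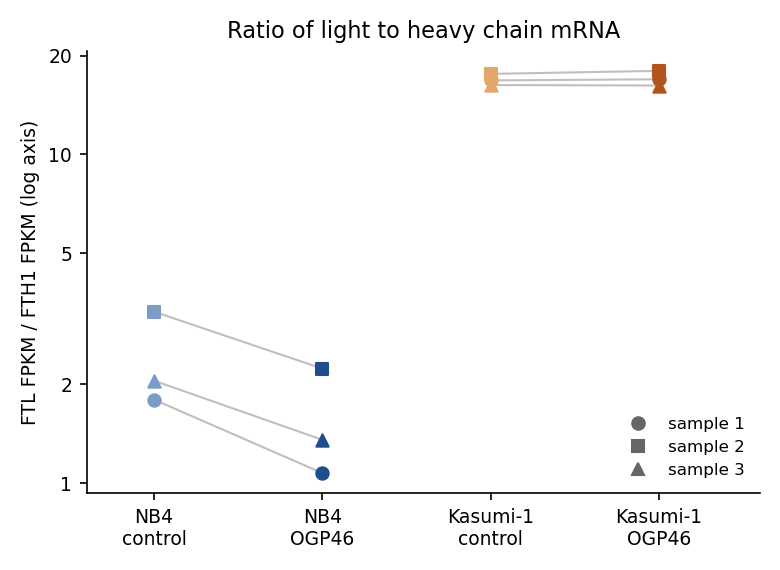
Ratio of FTL to FTH1 FPKM in each sample, on a log axis, with lines joining same-numbered samples. All 3 NB4 pairs are lower with OGP46, while the Kasumi-1 samples stay between 16.2 and 18.0.

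Whether the effect of OGP46 differed between the lines was tested as the interaction of line and treatment over 12309 genes. Without the block, 0 of the 8 members and 0% of all genes differed (1348 genes at an unadjusted p below 0.05). FTH1 had a log2 fold change 0.62 higher in NB4 than in Kasumi-1 cells (SE 0.37, 95% interval −0.19 to 1.43, limma adjusted p = 0.55). With same-numbered samples as a block, this FTH1 difference was the 1 called among the members (adjusted p = 0.0268), where 1.81% of all genes differed with a higher value in NB4 cells. It was no longer called when the block was joined with median centring (0.47, adjusted p = 0.0752) or TPM scaling (0.48, adjusted p = 0.0637). For FTL the effects differed by −0.03, with a 95% interval from −0.37 to 0.32. Set directly against each other, the pairwise changes of the log2 FTL to FTH1 ratio were lower in all 3 NB4 pairs than in all 3 Kasumi-1 pairs, by a mean of −0.65 (exact permutation test, two-sided p = 0.10, the smallest possible). This last comparison was chosen after its values were seen.

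In NB4 cells, some macrophage markers were also higher with OGP46. The 8 markers (CD14, CD68, CSF1R, MARCO, C1QA, VSIG4, MRC1 and MSR1) summed to between 10.7 and 11.9 FPKM in the controls and between 16.5 and 19.3 FPKM with OGP46. Of 3 that could be tested, 1 was called upwards without the block and 3 with it, while MRC1 and MSR1 were listed at 0 in all NB4 samples. CD68 made up most of the sum, at 8.04, 10.3 and 8.39 FPKM in the controls and 13.5, 14.8 and 12.8 FPKM with OGP46. VSIG4 went the other way, at 0.0346, 0.102 and 0.365 FPKM in the controls and at 0, 0.0172 and 0.0185 FPKM with OGP46. CD3D, a T-cell marker named after its values were seen, was at 16.1, 13.5 and 20.4 FPKM in the controls and 25.9, 22.5 and 34.6 FPKM with OGP46 (limma adjusted p = 0.072, and 0.000223 with the block). In Kasumi-1 cells the sum of the macrophage markers was 31.7 to 38.8 FPKM in the controls and 36.5 to 40.1 FPKM with OGP46, and 0 of 3 were called in either fit. Most of that sum was VSIG4, with means of 24.4 and 24.9 FPKM. CD68 was at 9.16, 11.36 and 6.97 FPKM in Kasumi-1 controls and 14.2, 12.2 and 11.35 FPKM with OGP46. These groups overlapped, with control 2 barely above OGP46 sample 3, and the difference was not called. The mean of CD68 was thus higher with OGP46 in both lines, with groups apart only in NB4 cells. Granule markers summed to 2605 to 3945 FPKM in NB4 controls and 1586 to 2812 FPKM with OGP46, with overlapping ranges. Of these 5, 0 were called without the block and 4 downwards with it, where 135 of all 11750 genes were called downwards. In Kasumi-1 cells that sum was 9612 to 11917 FPKM in the controls and 7759 to 8972 FPKM with OGP46. Those ranges did not overlap, but 0 of the 5 granule markers were called there in either fit. The 10 proliferation genes summed to 522 to 625 FPKM in NB4 controls and 651 to 662 FPKM with OGP46, with 0 called in either line. The part of these changes in the ferritin result was not tested, and in bulk samples a change in the share of a cell type and a change in RNA per cell cannot be told apart.

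The iron uptake receptor TFRC was not called in either line, although its level was among the highest of the members. TFRC (chr3:196027183-196082189, minus strand), which brings transferrin-bound iron into the cell and carries the 4 elements printed above, was at 82.1, 86.7 and 81.0 FPKM in NB4 controls and 75.4, 100.7 and 106.6 FPKM with OGP46. The OGP46 samples lay on both sides of the controls. The TFRC log2 fold change was 0.16 (95% interval −0.13 to 0.45, limma adjusted p = 0.398), and it turned to −0.06 after median centring. In Kasumi-1 cells TFRC was at 93.8, 92.3 and 109.5 FPKM in the controls and 99.6, 90.2 and 113.0 FPKM with OGP46. That difference was 0.03 on the log2 scale (95% interval −0.18 to 0.24). In each line the change measured for FTL lies outside the interval of TFRC. In NB4 cells, however, the interval of FTL (0.39 to 0.80) overlaps that of TFRC, and FTL was not tested against TFRC.

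SLC11A2 (chr12:50979401-51028566, minus strand), which moves ferrous iron out of the endosome, was at 4.74, 4.18 and 4.30 FPKM in NB4 controls and 4.75, 3.74 and 6.14 FPKM with OGP46. In Kasumi-1 cells it was at 6.40, 6.69 and 6.38 FPKM in the controls and 7.02, 6.61 and 7.79 FPKM with OGP46. The groups overlapped in both lines, and the SLC11A2 log2 fold changes were 0.12 (95% interval −0.27 to 0.51) and 0.13 (95% interval −0.05 to 0.31). SLC11A1 (chr2:218382029-218396894, plus strand), the related transporter of the phagosome in macrophages and granulocytes, was the lowest member. In NB4 controls it was at 0.0626, 0.101 and 0.0490 FPKM, and with OGP46 at 0.0927, 0.170 and 0.0997 FPKM. In Kasumi-1 cells it was listed at 0 in control 1 and did not exceed 0.0347 FPKM in any sample.

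NCOA4 (chr10:46005088-46030714, minus strand), the receptor that hands ferritin to the autophagosome so that its iron is released, showed no difference past the spread in NB4 cells. It was at 35.3, 38.6 and 40.1 FPKM in the controls and 35.6, 35.97 and 44.4 FPKM with OGP46, which gave a log2 fold change of 0.02 (95% interval −0.22 to 0.26, limma adjusted p = 0.916). In Kasumi-1 cells NCOA4 was at 81.5, 80.4 and 85.5 FPKM in the controls and 97.5, 82.0 and 96.5 FPKM with OGP46. That was a log2 fold change of 0.15 (95% interval −0.01 to 0.32, adjusted p = 0.353), with OGP46 sample 2 inside the range of the controls.

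SLC40A1 (chr2:189560579-189583758, minus strand), the iron exporter, differed more between sample numbers than between treatments in NB4 cells. It was at 1.32, 3.91 and 2.04 FPKM in the controls and at 0.756, 3.90 and 1.55 FPKM with OGP46. Sample 2 was the highest and sample 1 the lowest in both groups, the reverse of the order of FTH1. The SLC40A1 log2 fold change was −0.37 (95% interval −1.63 to 0.89, limma adjusted p = 0.667 and 0.0821 with the block). With the block and median centring it was −0.59 and passed the threshold (adjusted p = 0.0312). Without control 2 or OGP46 sample 1 its sign turned, to 0.03 and 0.16. In Kasumi-1 cells the values lay close together, at 6.00, 6.60 and 6.45 FPKM in the controls and 6.08, 5.64 and 6.21 FPKM with OGP46, which gave a log2 fold change of −0.09 (95% interval −0.26 to 0.09).

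The mRNAs of the iron regulatory proteins were not called in either line. IREB2 (chr15:78437431-78501456, plus strand), the regulator that is degraded when iron is plentiful, was at 22.5, 19.3 and 19.97 FPKM in NB4 controls and 22.9, 22.6 and 26.7 FPKM with OGP46. These ranges did not overlap, by a narrow margin, and the IREB2 log2 fold change was 0.22 (95% interval −0.0016 to 0.45, limma adjusted p = 0.173). In Kasumi-1 cells IREB2 was at 20.2, 19.8 and 22.4 FPKM in the controls and 22.7, 22.3 and 25.2 FPKM with OGP46, which gave a log2 fold change of 0.17 (95% interval 0.01 to 0.33, adjusted p = 0.299). ACO1 (chr9:32384603-32454769, plus strand), an aconitase that binds RNA when it has lost its iron-sulfur cluster, was at 11.0, 10.6 and 10.01 FPKM in NB4 controls and 11.2, 12.1 and 11.8 FPKM with OGP46. The ACO1 log2 fold change was 0.15 (95% interval −0.04 to 0.34, adjusted p = 0.252), and −0.07 after median centring. In Kasumi-1 cells ACO1 overlapped between the groups, with a log2 fold change of 0.07 (95% interval −0.09 to 0.24).

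**Figure D3:**
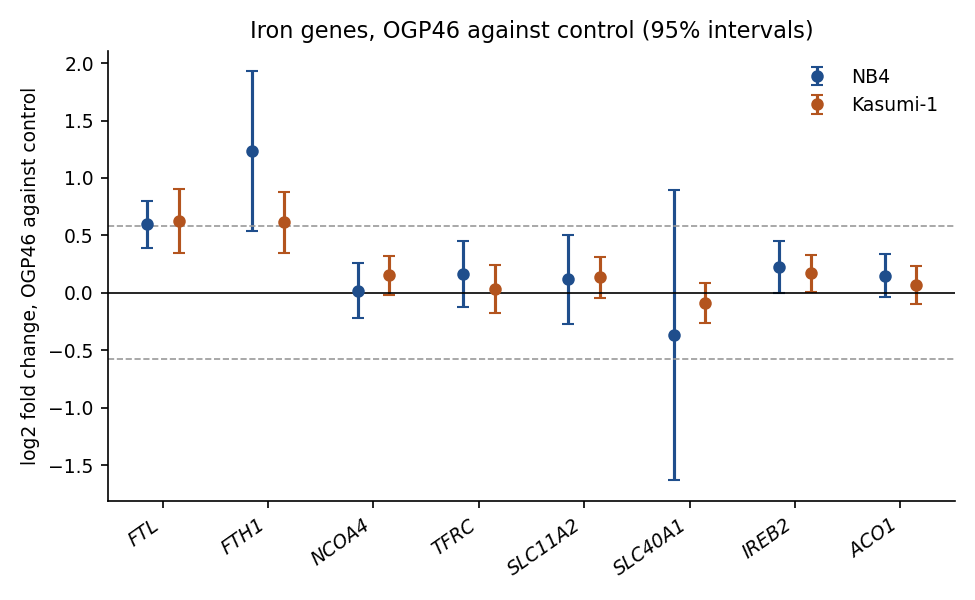
Log2 fold change of OGP46 against control for the 8 tested members, with 95% intervals from limma without the block, and dashed lines at the fold of 0.58 required for a call. FTL and FTH1 lie highest in both lines, and the interval of SLC40A1 in NB4 cells runs from −1.63 to 0.89.

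Over the 8 members tested, every OGP46 sample lay above every control for 4 genes in NB4 cells (FTL, FTH1, IREB2 and ACO1), where 32.7% of all genes did so. In Kasumi-1 cells this held for 2 members (FTL and FTH1), where 17.4% of all genes did so. The median log2 fold change of the members was 0.16 in NB4 cells and 0.14 in Kasumi-1 cells, beside 0.18 and 0.05 over all genes tested.

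**Figure D4:**
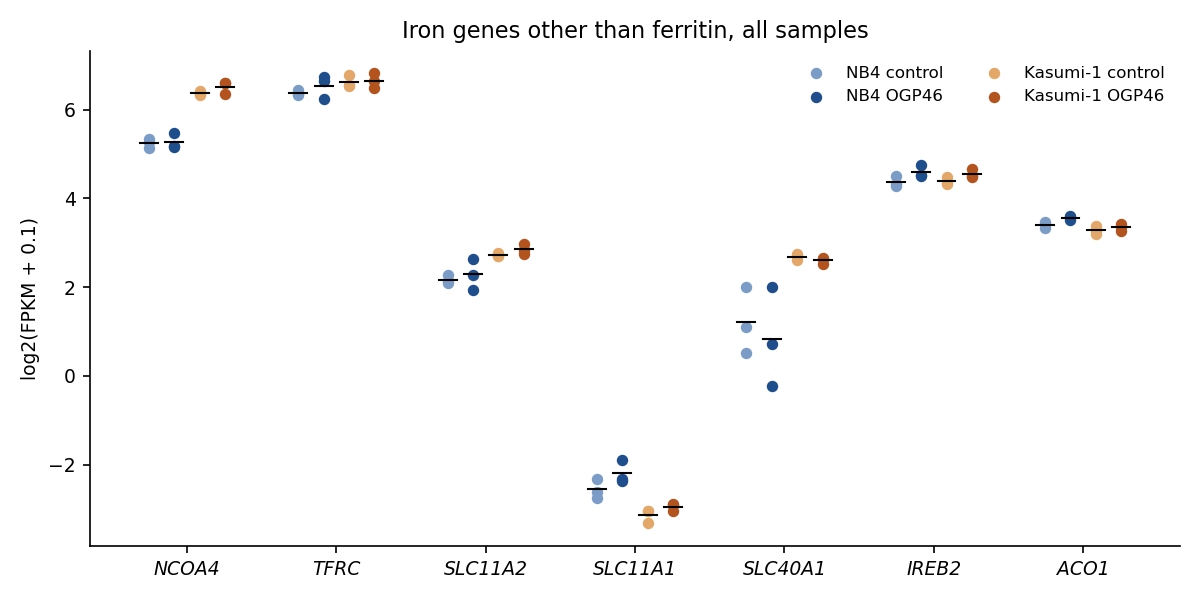
Level of the 7 members other than ferritin in each sample as log2(FPKM + 0.1), with black bars at group means. TFRC and NCOA4 lie highest and SLC11A1 lowest, and the NB4 values of SLC40A1 spread from 0.756 to 3.91 FPKM.

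The untreated lines differed in 4 of the 8 members tested, a share close to the 52.4% of all genes called in either direction. Compared without OGP46, 3 members were called higher in Kasumi-1 cells (FTL, NCOA4 and SLC40A1), where 29.7% of all 12302 genes were, and 1 was called lower (FTH1), where 22.7% were. These comparisons share the controls with those above. FTH1 was lower by a log2 difference of −1.76 (SE 0.20, limma adjusted p = 4.0e-05). FTL was higher in Kasumi-1 cells by 1.11 (SE 0.11, adjusted p = 2.0e-05), and by 0.50 after quantile normalization, which is under the fold required. The control ratio of FTL to FTH1 was 2.39 ± 0.819 in NB4 and 16.9 ± 0.667 in Kasumi-1 cells (SD, n = 3 each), with no overlap (exact permutation test of the log2 ratios, two-sided p = 0.10, the smallest possible).

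NCOA4 was at 38.0 ± 2.46 FPKM in NB4 controls and 82.5 ± 2.72 FPKM in Kasumi-1 controls (SD, n = 3 each), a log2 difference of 1.12 (SE 0.07, limma adjusted p = 1.1e-06). SLC40A1 was at 2.42 ± 1.34 and 6.35 ± 0.315 FPKM, a log2 difference of 1.49 (SE 0.31, adjusted p = 0.002). Both stood higher in every Kasumi-1 control than in every NB4 control. SLC11A2 was higher in Kasumi-1 cells by 0.55 (adjusted p = 0.000461), just under the fold required. TFRC was 0.24 higher (adjusted p = 0.0246), but 0.10 after median centring (adjusted p = 0.32) and 0.035 after TPM scaling (adjusted p = 0.746). ACO1 and IREB2 differed by −0.13 and 0.02 with overlapping groups, and ACO1 by −0.33 after TPM scaling (adjusted p = 0.00156). SLC11A1, not tested, was higher in every NB4 control than in every Kasumi-1 control.

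A further 69 genes of iron and heme metabolism were read from the same fits. In NB4 cells 56 of them could be tested, 3 were called upwards (5.36%, beside the 1.45% of all genes) and 0 downwards, and their median log2 fold change was 0.13. In Kasumi-1 cells 56 could be tested and 0 were called without the block (BLVRB at an adjusted p of 0.0515) or with it, with a median of 0.01. The genes called in NB4 cells were HMOX1, SLC48A1 and MCOLN1. With the block these 3 were called again, a share close to the 5.06% of all genes. All 3 were still called when NB4 OGP46 sample 2 was left out, a fit that called 396 of all 11767 genes. Leaving out a different NB4 sample gave 0 of the 3, but such fits called no more than 2 genes in all. Under TPM scaling, median centring or quantile normalization without the block, none of these 3 was called, nor was any other gene. HMOX1 was still higher there by at least 2.12 (log2).

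HMOX1, the heme oxygenase that frees iron from heme, was at 6.87, 3.03 and 6.22 FPKM in NB4 controls and 42.9, 14.2 and 29.3 FPKM with OGP46. Sample 1 was the highest and sample 2 the lowest in both groups, as for FTH1. The HMOX1 log2 fold change was 2.34 (SE 0.42, limma adjusted p = 0.0375 and 2.5e-07 with the block). In Kasumi-1 cells HMOX1 was at 0.196, 0.589 and 0.0839 FPKM in the controls and 0.836, 0.595 and 0.813 FPKM with OGP46, which gave a log2 fold change of 1.33 (SE 0.40, adjusted p = 0.17), with OGP46 sample 2 barely above control 2.

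SLC48A1, a heme transporter of the endosome and lysosome, was at 2.72, 3.30 and 2.65 FPKM in NB4 controls and 5.43, 4.79 and 4.84 FPKM with OGP46, which gave a log2 fold change of 0.78 (limma adjusted p = 0.0305). MCOLN1, a lysosomal cation channel that lets iron out, went from 2.83 ± 0.0848 to 4.42 ± 0.663 FPKM (SD, n = 3 each), with its log2 fold change at 0.62 (adjusted p = 0.047). Named next by size among genes without overlap were FBXL5, the iron-sensing ligase subunit that targets IREB2 protein (0.52, adjusted p = 0.0472, under the fold required), and the heme synthesis enzymes FECH (0.44, adjusted p = 0.0789) and ALAS1 (0.30, adjusted p = 0.102). In Kasumi-1 cells the genes named by the same rule were HMOX1, BLVRB (0.57), FBXL5 (0.37), MCOLN1 (0.33), ALAS1 (−0.25) and ALAD (0.23). BLVRB, a biliverdin reductase, was at 7.77 ± 0.739 FPKM in Kasumi-1 controls and 11.6 ± 0.499 FPKM with OGP46 (SD, n = 3 each). It passed the threshold after TPM scaling (0.59, adjusted p = 0.0242).

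By role, none of the 16 genes of mitochondrial iron and iron-sulfur assembly, of the 8 of cytosolic iron-sulfur assembly or of the 9 tested genes of heme synthesis were called in either line. Their medians in NB4 cells were 0.06, 0.12 and 0.12 on the log2 scale, all below the 0.18 of all genes. Between the untreated lines, 27 of 55 were called (49.1%), 12 higher and 15 lower in Kasumi-1 cells, where 52.4% of all genes were called in either direction. The largest differences upwards were those of PCBP4, of the family of iron chaperones (2.55), FLVCR2, of a family of heme and choline transporters (1.94), and FECH, which inserts iron into heme (1.70). The largest downwards were those of HMOX1 (−3.95), the mitochondrial ferredoxin FDX1L (−3.40) and the biliverdin reductase BLVRA (−2.10). HMOX1 and BLVRA averaged only 0.290 and 0.132 FPKM in Kasumi-1 controls, so the size of their differences depends on the 0.1 added. With 1 or 0.01 added instead, the HMOX1 difference was −2.27 or −4.49.

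**Figure D5:**
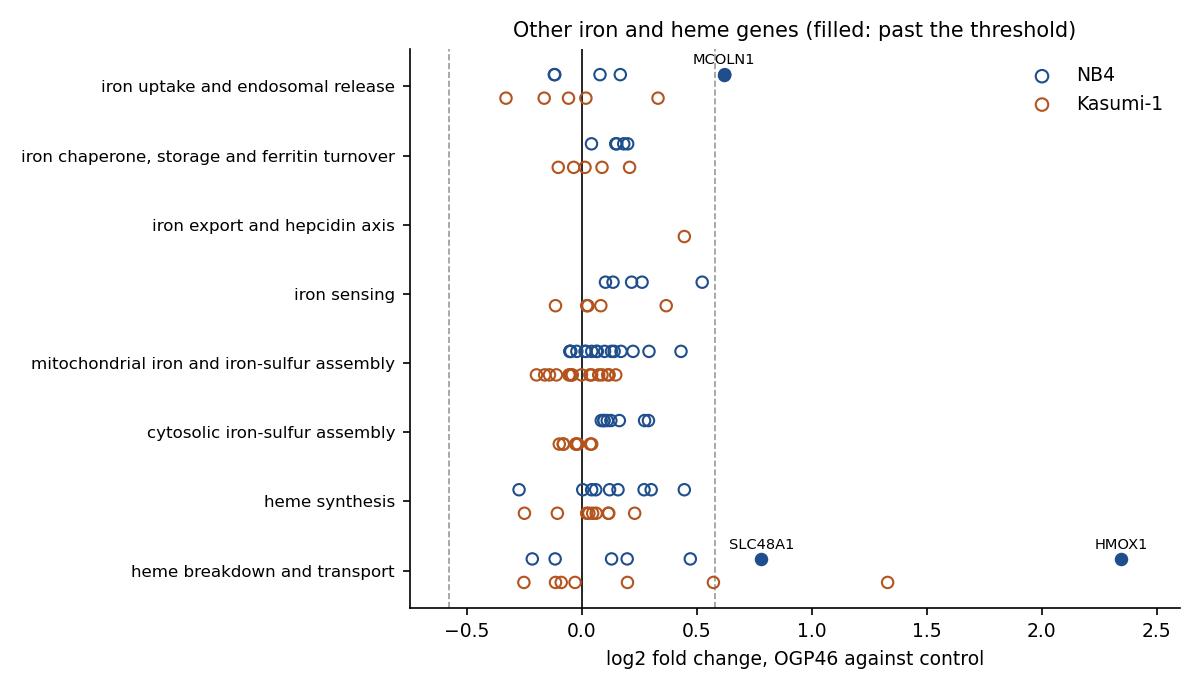
Log2 fold change of OGP46 against control for the other iron and heme genes tested, by role, in NB4 (blue) and Kasumi-1 cells (orange), with filled circles past the threshold without the block and dashed lines at 0.58 and −0.58. The filled circles are HMOX1, SLC48A1 and MCOLN1, all in NB4 cells.

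Likeness of pattern was measured over the 12 samples by Pearson r of log2(FPKM + 0.1) after removal of each line's mean, among the 5463 genes that averaged 5 FPKM or more in both lines. The samples of a group share treatment and cell line, so r is given as a description. FTL and FTH1 had an r of 0.81 with each other. The genes most like FTL were MYO1F, a myosin of blood cells (0.97), CTSB, the lysosomal protease cathepsin B (0.96), and DBNL, an actin-binding protein (0.96). Those most like FTH1 were KIAA1551 (0.98), SERINC1 (0.98) and PICALM, a clathrin adaptor (0.97). For TFRC they were ESYT2 (0.93), TGFBRAP1 (0.92) and NAE1 (0.90).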

How the data were processed

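Poly(A) mRNA of 12 samples was sequenced with a stranded kit, and the authors deposited FPKM, 1 value per gene symbol and sample. The submitters' processing notes name Trimmomatic, HISAT2, Cufflinks, HTSeq and hg38. Their roles and versions, the annotation and the use of strand in counting are not given in the sources used here. Read depth is unknown, so no counting error is given. Of the deposited FPKM values, 632 lay between 0 and 1e-04, so fragments were shared out by an estimate. FTL and FTH1 have 16 and 25 pseudogenes named for them in GENCODE release 29, and FTH1 overlaps BEST1 on the other strand, so their values may hold or lose fragments of these. After 27 symbols turned into dates were left out, 20003 genes remained.

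Samples were grouped by their labels. FPKM were taken as deposited, and log2(FPKM + 0.1) was compared by limma 3.58.1 in R 4.3.3, with empirical Bayes moderation, a mean-variance trend and Benjamini-Hochberg adjustment over all genes that averaged 0.1 FPKM or more. The code was tested on simulated data. Single values were compared by exact permutation tests. Samples tended to pair by number within each line. The deviations of same-numbered control and OGP46 samples from their group means had r of 0.355, 0.622 and 0.197 in NB4 and 0.218, 0.157 and 0.395 in Kasumi-1 cells across genes. The highest r with another number was 0.224, −0.34 and 0.175 in NB4 and 0.101, 0.0275 and −0.217 in Kasumi-1 cells. NB4 sample 3 thus paired only weakly by number across these genes. Among the 6264 genes that averaged 5 FPKM or more in NB4 cells, its r was 0.439, against 0.224 with another number. That was still the lowest of the NB4 samples, beside 0.662 and 0.85 for samples 1 and 2. Controls of different lines did not pair.

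The 9 genes, the 69 further genes and the markers were chosen with earlier results of these data known. The results of 2 of the marker lists are not reported here. All 9 are named throughout. Of the others, those past the threshold are named, filled up to the 6 largest changes without overlap, with the 3 largest in each direction between the untreated lines, and the 3 genes most like each of FTL, FTH1 and TFRC. Alternatives were pseudocounts of 1 and 0.01, no filter, a filter at 1 FPKM, scaling to TPM, centring on sample medians, quantile normalization, no trend, a joint fit of the 12 samples, the sample number as a block alone and with median centring or TPM scaling, and each sample left out.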

Additional observations from a re-analysis of the deposited data

Results flagged for a closer look

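The difference between the lines in the OGP46 effect on FTH1 drew attention because the test of the difference itself passed with same-numbered samples as a block. In NB4 cells FTH1 changed by 0.62 more on the log2 scale than in Kasumi-1 cells, with an adjusted p of 0.0268 from limma. FTH1 was higher with OGP46 in 3 of 3 pairs of each line. With single samples left out, without the block, it ranged from 0.34 (without NB4 OGP46 sample 1; 0.39 without NB4 control 2) to 0.93 (without NB4 OGP46 sample 2). Over the other settings for this difference, the adjusted p lay between 0.0637 and 0.928. Groups of 3 samples were not tested for single outlying samples.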

How the results depend on the processing

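The count of members called in NB4 cells (1) was 0 with no filter, TPM scaling, median centring, quantile normalization or no trend. It was 2 in the joint fit of the 12 samples and with the replicate block (FTH1 and FTL in both). With the block and median centring it was also 2 (FTH1 upwards and SLC40A1 downwards). With the block and TPM scaling it was 1, FTH1 in place of FTL. Of all genes tested in NB4 cells, 0 were called under TPM scaling, median centring or quantile normalization, and 4 with no filter or no trend. All-gene counts were 498 in the joint fit and 730 with the block. With the block they were 391 after median centring and 449 after TPM scaling. The count of other iron and heme genes called in NB4 cells (3) was 0 with no filter, TPM scaling, median centring, quantile normalization or no trend, 1 with the block and median centring (HMOX1) and 2 with the block and TPM scaling (HMOX1 and SLC48A1). In Kasumi-1 cells the count of members called (0) was 1 with a minimum mean of 1 FPKM (FTH1) or TPM scaling (FTL), and 2 with the replicate block alone or with TPM scaling. The count of other genes in Kasumi-1 cells (0) was 1 with TPM scaling, without or with the block. Of all genes tested in Kasumi-1 cells, 24 were called with a minimum mean of 1 FPKM and 18 with TPM scaling. With the block 73 were called, and 98 with the block and TPM scaling. The count of members whose effect differed between the lines (0) was 1 with the replicate block alone, where 237 of 12309 genes differed.

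With each sample left out in turn, the count in NB4 cells ranged from 0 to 2 for members and from 0 to 3 for the other genes, and the count of members called between the untreated lines from 4 to 5. The 3 other genes were called without NB4 OGP46 sample 2 and 0 were without any other NB4 sample. The counts over all genes were 396 in the former fit and 0 to 2 in the latter fits. The log2 FTL to FTH1 ratio difference ranged from −0.93 to −0.37 in NB4 cells and from −0.026 to 0.048 in Kasumi-1 cells.

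Under an alternative without the block or with it, some uncalled differences close to 0 changed sign. In NB4 cells these were, under median centring, TFRC (−0.057), SLC11A2 (−0.10), NCOA4 (−0.20) and ACO1 (−0.070), under TPM scaling SLC11A2 (−0.0068) and NCOA4 (−0.11), and under quantile normalization SLC11A2 (−0.099), NCOA4 (−0.14) and ACO1 (−0.036). In Kasumi-1 cells TFRC did so under median centring (−0.034). For the difference between the lines, TFRC, IREB2 and ACO1 did so under median centring (−0.019, −0.096 and −0.070), TPM scaling (−0.015, −0.091 and −0.065) and quantile normalization (−0.027, −0.086 and −0.040). Between the untreated lines IREB2 did so under TPM scaling (−0.19) and median centring (−0.12). The replicate block with median centring or with TPM scaling gave the same values as that scaling alone.

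Leaving out single samples also turned some signs. In NB4 cells the ranges were −0.95 to 0.16 for SLC40A1, −0.061 to 0.29 for SLC11A2 and −0.085 to 0.074 for NCOA4, and in Kasumi-1 cells −0.052 to 0.11 for TFRC. For the difference between the lines they were −0.096 to 0.070 for FTL, −0.87 to 0.25 for SLC40A1, −0.19 to 0.16 for SLC11A2 and −0.022 to 0.12 for IREB2, and between the untreated lines −0.035 to 0.083 for IREB2. Of 938 values of single genes under alternatives, 817 kept direction and call, 58 changed sign, 47 lost the call and 16 gained it. The causes were not tested. Without read counts, what depth limits cannot be stated, and 3 samples a group set the precision.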
